A study of Mus musculus with 6 samples.

Results

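The genes described here are 10 genes that cells switch on within minutes of a disturbance: the immediate early genes *Fos*, *Fosb*, *Jun*, *Junb*, *Egr1* and *Atf3* and the heat shock genes *Hspa1a*, *Hspa1b*, *Dnajb1* and *Hsph1*. They were picked by gene symbol, and all 10 were found among the 55141 named genes of the count tables. The tables come from polyadenylated RNA of whole mouse tibias, 3 from Atrx-cKO and 3 from control mice, all male and 8 weeks old. Atrx-cKO mice (labelled Osterix-Cre; Atrxf/y) carried a floxed allele of *Atrx*, an X-linked chromatin remodeler, together with the *Osterix-Cre* transgene (Sp7-tTA, tetO-EGFP/cre), in which *Osterix* (*Sp7*) regulatory sequence drives Cre recombinase in preosteoblasts. Control mice (labelled Atrxf/y) carried the floxed allele and no transgene, so the transgene and the loss of *Atrx* cannot be told apart in these libraries. Doxycycline, which keeps this Cre silent, was given until 3 weeks of age. Each library held between 50977777 and 70571655 reads on genes. *Atrx* itself had 153, 166 and 171 CPM (counts scaled to library size, normalized by the TMM method) in Atrx-cKO replicates 1, 2 and 3 and 174, 166 and 165 in control replicates 1, 2 and 3. The ranges meet, and a count over the whole gene in the whole bone does not check a deletion limited to one lineage. Of the bone markers, *Col1a1*, the main collagen of bone matrix, had 58165, 57837 and 57564 CPM in Atrx-cKO and 53548, 92517 and 82629 in control tibias.

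Immediate early genes need no new protein synthesis for their transcription. Kinase cascades act on factors already bound at their promoters, such as SRF with its ternary complex partners and CREB, and the transcripts decay quickly again. The FOS and JUN proteins pair into AP-1, which in bone acts in osteoblasts and is required for osteoclast formation. Heat shock genes are switched on by HSF1, which is released when unfolded protein takes up the chaperones that hold it inactive, and which binds inverted repeats of a short motif called the heat shock element. Both groups are known to respond to handling, ischemia and cooling, also in tissue under dissection. The tibias were snap frozen before RNA was extracted, and the interval between death and freezing was not analysed here.

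Promoters of 3 of the 4 heat shock genes are printed here because they hold a heat shock element, and the *Hspa1a* and *Hspa1b* pair shows how alike these neighbors are. The 150 bases before the start site are given 5′ to 3′ on the gene's strand, from RefSeq on GRCm38.p6, and capitals mark a heat shock element of inverted units, GAANNTTC or TTCNNGAA. Both forms are their own reverse complement, so either strand gives the same matches.
*Hspa1a*, chr17:34972157-34972306, minus strand: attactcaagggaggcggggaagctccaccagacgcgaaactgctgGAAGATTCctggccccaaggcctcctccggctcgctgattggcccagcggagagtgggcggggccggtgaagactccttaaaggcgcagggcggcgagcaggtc
*Hspa1b*, chr17:34959239-34959388, minus strand: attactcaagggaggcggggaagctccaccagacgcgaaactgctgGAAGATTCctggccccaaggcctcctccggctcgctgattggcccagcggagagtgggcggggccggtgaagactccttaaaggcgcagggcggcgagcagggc
*Hsph1*, chr5:149636316-149636465, minus strand: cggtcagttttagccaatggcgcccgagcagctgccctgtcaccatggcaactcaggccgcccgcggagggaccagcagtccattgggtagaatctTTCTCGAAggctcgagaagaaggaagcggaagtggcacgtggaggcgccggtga
In this stretch *Hspa1a* and *Hspa1b* differ by the single substitution T149G, with the *Hspa1a* base first and positions counted from 1 at the 5′ end of the window. Promoter sequence (250 bases before to 50 after the start site) was matched for 9 of the 10 genes, 11 promoters in all. An element was present in 5 of these 11, those of *Jun*, *Hspa1a* and *Hspa1b* and both of *Hsph1*, against 15.1% of 32851 promoters of the same length. The windows of *Hsph1* overlap and hold the same elements, so these were counted more than once. *Dnajb1* held none in either of its promoters, which says only that these letters are absent from the window. The core of the CREB binding site, TGACG or its reverse complement CGTCA, was found in the promoters of *Fos*, *Fosb*, *Junb*, *Atf3* and *Dnajb1* and in 20.8% of all promoters. The full CREB site (TGACGTCA), the AP-1 site (TGANTCA) and the SRF site (CArG box) were each in 0 of the 11. They were in 1.79%, 7.81% and 1.63% of all promoters. Here too a 0 says only that the exact letters are absent from the window. Variants such as TGACATCA in *Jun* and TTACGTCA in *Atf3* were not counted, and sites further upstream were not searched. For *Fos* the core of the CREB site is shown in capitals in the same window of 150 bases.
*Fos*, chr12:85473740-85473889, plus strand: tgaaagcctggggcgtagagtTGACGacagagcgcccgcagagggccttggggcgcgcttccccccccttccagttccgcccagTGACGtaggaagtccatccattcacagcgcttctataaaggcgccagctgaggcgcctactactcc
Such matches describe the sequence and are not sites shown to be bound.

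None of the 10 genes met the study's thresholds between genotypes, an adjusted p below 0.05 and a log2 change of 1 or more either way. With edgeR's quasi-likelihood test, adjusted over 20636 genes by the Benjamini-Hochberg method, all 10 passed the filter on low counts and 0 were called, where 0.0145% of all tested genes were, and their adjusted p values lay between 0.992 and 0.999. At an unadjusted p under 0.05 there were 3, *Fosb*, *Jun* and *Atf3*, all with lower means in Atrx-cKO tibias, where 3.64% of tested genes passed in either direction and 2.05% as lower. DESeq2 also called 0, with 3 at an unadjusted p under 0.05. The shares of tested genes given above are edgeR's and do not apply to this DESeq2 count. Its own share over all genes is not given here, so the count is not read as a result. The 3 Atrx-cKO libraries lay entirely below the 3 controls for *Jun* and *Atf3*, 2 of the 10 genes, where groups that do not overlap were found in 8.31% of tested genes and as lower in 4.01%. The median log2 fold change of the 10 was -0.16, with 6 below and 4 above 0, and the median of all tested genes was 0.0050. RNA from a whole bone mixes many cell types, and fewer cells of a type and less RNA per cell cannot be told apart. An exact two-sided permutation test on 3 against 3 libraries cannot go below p = 0.1, the value reached by *Jun* and *Atf3*.

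**Figure D1:**
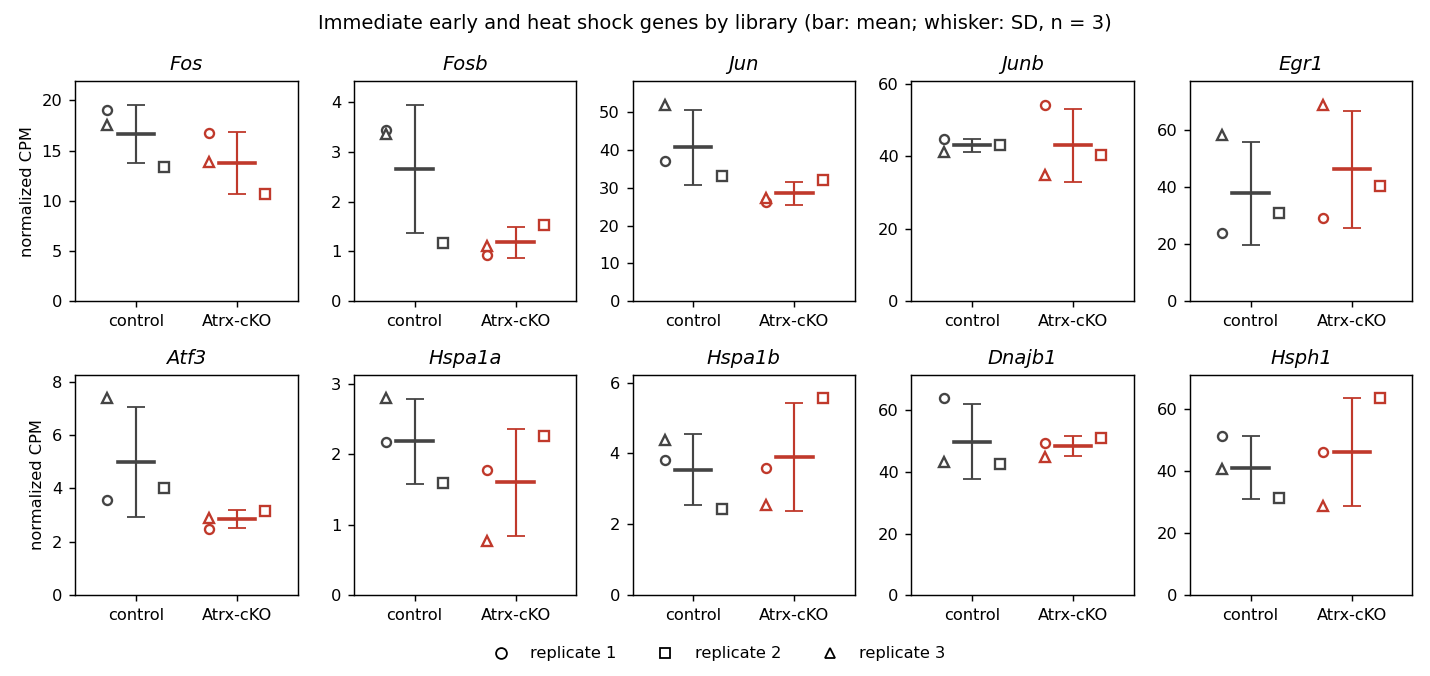
Normalized CPM (vertical axes, starting at 0) of the 10 genes in the 3 control (grey) and 3 Atrx-cKO (red) libraries, with a symbol per replicate, a bar for the mean and whiskers for the SD (n = 3). The groups are apart for *Jun* and *Atf3* alone, and the highest *Atf3* value, 7.37 CPM, belongs to control replicate 3.

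The FOS proteins are the partners in AP-1 that cannot pair among themselves. *Fos* (ENSMUSG00000021250, chromosome 12 from 85473890 to 85477273) had 16.7, 10.6 and 13.9 CPM in Atrx-cKO replicates 1, 2 and 3 and 19.0, 13.4 and 17.5 CPM in the controls. Replicate 2 was the lowest library of each genotype, and the ranges overlapped. All 7 osteoclast markers, described below, were also lowest in Atrx-cKO replicate 2. The Atrx-cKO mean of *Fos* was 13.8 ± 3.05 CPM (SD, n = 3) and the control mean 16.6 ± 2.93 CPM (SD, n = 3). For *Fos* the log2 fold change was -0.27 with a 95% interval from -0.66 to 0.11 (edgeR quasi-likelihood fit), which includes 0, and it ran from -0.44 without Atrx-cKO replicate 1 to -0.13 without Atrx-cKO replicate 2. *Fosb* (chromosome 7 from 19302696 to 19310051), which is known in bone because its short splice form raises bone mass in transgenic mice, was the weakest of the 10 per length. It had 0.924, 1.52 and 1.10 CPM in Atrx-cKO and 3.44, 1.17 and 3.36 CPM in control tibias. Control replicates 1 and 3 stood above all others, while control replicate 2 lay within the Atrx-cKO range. Its log2 fold change of -1.16 (standard error, SE, 0.43) was the furthest from 0 of the 10, with an unadjusted p of 0.0275 and an adjusted p of 0.992 (edgeR quasi-likelihood). Without control replicate 2 it was -1.52, and in DESeq2 that fit, added after the data were seen, met both thresholds (adjusted p = 0.00645). The splice forms are not separated by a count per gene.

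The JUN proteins complete AP-1 and can also pair among themselves. *Jun* (ENSMUSG00000052684, chromosome 4 from 95049034 to 95052222) had 26.3, 32.0 and 27.3 CPM in Atrx-cKO and 37.0, 33.0 and 51.9 CPM in control tibias. The highest Atrx-cKO library came close to the lowest control, and control replicate 3 stood well above the rest. *Jun* was at a log2 fold change of -0.51 (SE 0.17), with an unadjusted p of 0.0199, the lowest of the 10, and an adjusted p of 0.992 (edgeR quasi-likelihood). Without control replicate 3 it was -0.31 (unadjusted p = 0.0417). On the opposite strand the antisense gene *Junos* covers 232 of the 3189 exonic bases of *Jun*. It had 6.04, 5.92 and 6.32 CPM in Atrx-cKO and 6.94, 5.88 and 9.37 CPM in control tibias, again with the highest value in control replicate 3. The libraries are labelled strand specific, but whether the counting used strand is not given in the sources used here, so reads of *Jun* and *Junos*, and of the other overlapping pairs below, cannot be told apart with certainty. *Junb* (chromosome 8 from 84974484 to 84978718), which can restrain AP-1 activity, had 54.2, 40.3 and 34.7 CPM in Atrx-cKO and 44.7, 43.1 and 41.3 CPM in control tibias. The Atrx-cKO libraries lay on both sides of closely spaced controls, and the means were 43.1 ± 10.1 (SD, n = 3) and 43.0 ± 1.74 (SD, n = 3). Of the 2301 exonic bases of *Junb*, 173 are shared with *Prdx2*, an antioxidant gene abundant in erythroid cells that lies on the opposite strand and had 158 to 230 CPM. How far its reads enter the *Junb* count was not tested.

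*Egr1* encodes a zinc finger factor induced through SRF. It had 29.3, 40.4 and 68.8 CPM in Atrx-cKO replicates 1, 2 and 3 and 24.0, 30.9 and 58.3 CPM in the controls (ENSMUSG00000038418, 1372 to 4052 counts per library). Replicate 3 was the highest library in each genotype, more than 1.5 times the next one, and the ranges overlapped almost entirely. Its log2 fold change was 0.29 with a 95% interval from -0.47 to 1.06 (edgeR quasi-likelihood, adjusted p = 0.992). It was -0.11 without Atrx-cKO replicate 3, 0.054 without control replicate 1 and 0.73 without control replicate 3, so single libraries set its sign and size. *Atf3*, a stress-induced factor that dimerizes with JUN proteins and mostly represses, lies on chromosome 1 from 191170296 to 191218039 (ENSMUSG00000026628). It had 2.5, 3.15 and 2.89 CPM in Atrx-cKO and 3.58, 4.02 and 7.37 CPM in control tibias. All Atrx-cKO libraries were below all controls, and control replicate 3 was far above the other controls. *Atf3* was at a log2 fold change of -0.81 (SE 0.29), with an unadjusted p of 0.0256 and an adjusted p of 0.992 (edgeR quasi-likelihood). Without control replicate 3 it was -0.43 (unadjusted p = 0.0711).

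The heat shock genes gave values on both sides of 0 and a common order of the Atrx-cKO libraries. *Hspa1a* and *Hspa1b* encode the nearly identical inducible HSP70 proteins and lie on chromosome 17 from 34969190 to 34972156 and from 34956436 to 34959238. *Hspa1a* (ENSMUSG00000091971) had 1.78, 2.26 and 0.764 CPM in Atrx-cKO and 2.17, 1.59 and 2.79 CPM in control tibias. *Hspa1b* (ENSMUSG00000090877) had 3.59, 5.55 and 2.55 CPM in Atrx-cKO and 3.82, 2.43 and 4.37 CPM in control tibias. In both, Atrx-cKO replicate 2 was the highest and replicate 3 the lowest of its genotype, and control replicate 3 the highest and replicate 2 the lowest of the controls. The log2 fold change of *Hspa1a* was -0.45 (95% interval from -1.24 to 0.35). It ran from -0.79 without Atrx-cKO replicate 2 to -0.11 without Atrx-cKO replicate 3. That of *Hspa1b* was 0.14 (95% interval from -0.51 to 0.79), and from -0.21 to 0.37 with single libraries left out. The longest open reading frames of the pair agree at 1890 bases and differ at 36 when set side by side from the start codon. Of all stretches of 150 bases, the read length, in their transcripts, 39.7% and 40.5% recur in another gene's transcripts. For the other 8 genes this share was 0. The tables list 3.69% to 4.56% of their entries separately as alignments that are not unique. Reads from shared stretches may thus be missing from the counts of both genes, though the counting program is not given. The levels of the pair, which may be too low, and the split between them are uncertain. *Hspa1a* also shares 564 of its 2967 exonic bases with *Gm20481* on the opposite strand, which had 13 to 54 counts per library.

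The remaining pair encodes partners of HSP70. *Dnajb1* (chromosome 8 from 83608193 to 83612653), the HSP40 that delivers substrates to it, had 49.3, 51.1 and 44.7 CPM in Atrx-cKO and 63.9, 42.5 and 43.1 CPM in control tibias. Control replicate 1 stood apart from the other 5 libraries, and control replicate 2 was the lowest. All 8 erythroid markers were likewise highest in control replicate 1 and lowest in control replicate 2. Their medians there were 0.65 and -0.70 from the library mean on the log2 scale. The part of erythroid RNA in the *Dnajb1* values was not tested. The log2 fold change of *Dnajb1* was -0.042 (95% interval from -0.36 to 0.27), and 0.015 with scaling by total counts alone. It ran from -0.15 to 0.18 with single libraries left out. *Hsph1* (chromosome 5 from 149614287 to 149636376), an HSP110 that exchanges nucleotide on HSP70, had 46.0, 63.4 and 28.8 CPM in Atrx-cKO and 51.3, 31.2 and 40.8 CPM in control tibias. Its Atrx-cKO libraries held both the highest and the lowest value, in the order seen for *Hspa1a* and *Hspa1b*. The log2 fold change of *Hsph1* was 0.17 (95% interval from -0.40 to 0.73), and from -0.14 to 0.41 with single libraries left out.

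Control replicate 3, the highest library for *Jun*, *Atf3* and *Hspa1a*, also held the most skeletal muscle RNA. The 12 muscle markers together had 12346 CPM in it and 912 and 964 CPM in control replicates 1 and 2, against 2585, 1305 and 749 CPM in Atrx-cKO replicates 1, 2 and 3. *Acta1*, the skeletal muscle actin and the most abundant marker per length, had 2003 CPM there and 113 to 442 CPM in the other 5 libraries. No marker was at 0 in any library, while *Myh1*, *Myh2* and *Mb* were not highest in control replicate 3. The part of muscle tissue in the *Jun* and *Atf3* values was not tested. Of 7 osteoclast markers 5 were highest in that library (median 0.57 above the mean of the 6 on the log2 scale), and of 10 neutrophil markers 9 were lowest (median -0.43). Chondrocyte markers had a median of 0.92 there, but only 3 of 7 were highest in it, as many as in Atrx-cKO replicate 3, and their summed level was 1609 CPM against 1595 CPM in control replicate 2. The 7 osteoclast markers were all below 0 between genotypes with a median log2 fold change of -0.41 (-0.19 without control replicate 3), and 0 of them had an unadjusted p under 0.05. *Ctsk*, the collagen-cleaving protease of osteoclasts, was at -0.46 (unadjusted p = 0.0918). The part of osteoclast RNA in the *Fos* and *Jun* values was not tested. Of the 10 genes, control replicate 3 was the highest library for 3 and the lowest for 0, where it was the highest for 22.4% and the lowest for 20.6% of tested genes.

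Per length, *Junb* was the most abundant of the 10, with 18.7 ± 2.81 CPM per kilobase of exon (SD, n = 6), followed by *Dnajb1* at 15.3 ± 2.5, *Jun* at 10.8 ± 2.94, *Egr1* at 9.36 ± 3.98, *Fos* at 6.46 ± 1.32 and *Hsph1* at 6.0 ± 1.78. The lower levels were those of *Atf3* at 1.82 ± 0.824, *Hspa1b* at 1.33 ± 0.417, *Hspa1a* at 0.638 ± 0.234 and *Fosb* at 0.307 ± 0.186 CPM per kilobase (SD, n = 6). The 6 libraries of *Hsph1* all lay above those of *Atf3*, and every other pair of neighbors in this order overlapped. *Dnajb1* and *Hsph1* thus stood above the inducible HSP70 genes, whose own levels are uncertain. *Jund*, the AP-1 gene that is expressed without a stimulus, had 92.7 ± 18.4 CPM per kilobase (SD, n = 3) in control tibias, above all 10.

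These genes varied widely between mice of one genotype. The pooled within-genotype SD of log2 CPM (0.5 CPM added) had a median of 0.409 over the 10 genes, against 0.155 over the 16171 tested genes of at least 1 CPM, whose quartiles were 0.0997 and 0.240. On this scale *Egr1* had the largest SD, 0.633, above that of 97.4% of those genes, but with 0.1 CPM added the SDs of *Egr1* and *Fosb* were 0.639 and 0.642, and the coefficient of variation was 46.0% for *Egr1* and 48.7% for *Fosb*. With 0.5 CPM added *Fosb* followed at 0.531 (96.3%), then *Hspa1a* at 0.476 (95.3%), *Hsph1* at 0.472 (95.2%), *Hspa1b* at 0.443 (94.4%) and *Atf3* at 0.375 (91.2%). *Fos*, *Jun*, *Dnajb1* and *Junb* had SDs of 0.288, 0.260, 0.244 and 0.233, larger than those of 83.4%, 78.7%, 75.7% and 73.5% of the genes. All 10 were above the median gene over the 6 libraries, but single libraries carried much of the spread. The SD went down to 0.144 for *Jun* and 0.136 for *Atf3* without control replicate 3, to 0.0851 for *Dnajb1* without control replicate 1 and to 0.0993 for *Junb* without Atrx-cKO replicate 1, all below 0.155, and to 0.217 for *Fosb* without control replicate 2. Since SDs are larger at low levels, the biological coefficient of variation was also set beside the trend edgeR fits for genes of like abundance. It was 0.336 for *Egr1*, where the trend was 0.141, and 0.254 for *Hsph1*, where it was 0.140. The other 8 lay closer above the trend, as with *Fosb* at 0.379 and 0.313, *Hspa1a* at 0.365 and 0.314 and *Fos* at 0.193 and 0.183. Counting error was a small share of this, since the coefficient of variation of the CPM was 16.8% to 48.7% and that of counting alone 1.88% to 9.68%. Neither genotype was the more variable throughout. The control SD was the larger in 5 of the 10 genes, namely *Fosb*, *Jun*, *Egr1*, *Atf3* and *Dnajb1*, and in 55.4% of the 16171 tested genes of at least 1 CPM. For *Junb* the Atrx-cKO SD was 0.324 and the control SD 0.0578, and for *Dnajb1* they were 0.0981 and 0.331. With 3 mice a genotype, a difference in spread cannot reach p = 0.05 by an exact permutation test.

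**Figure D2:**
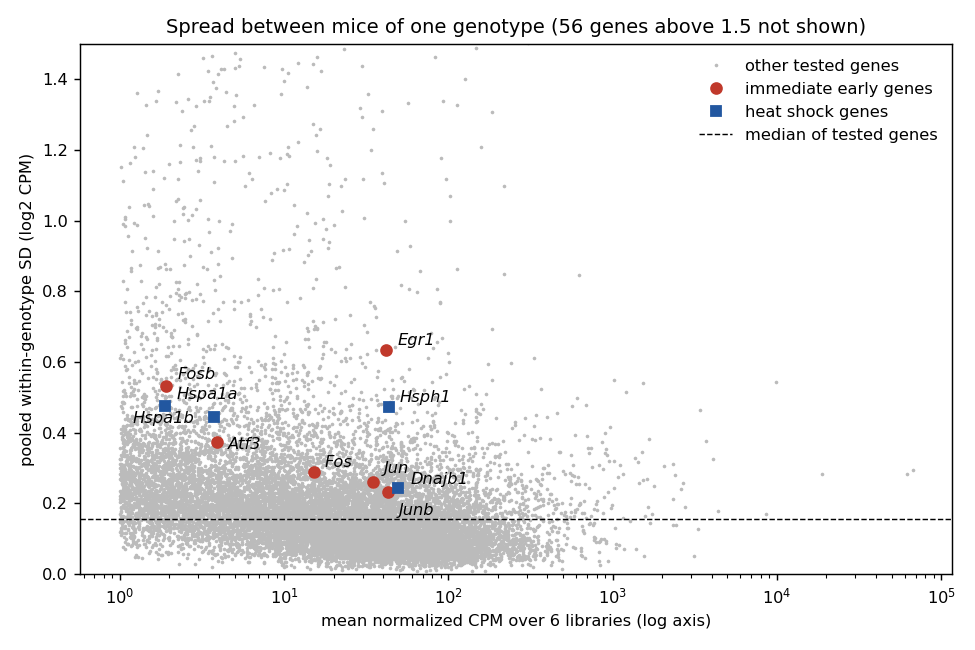
Pooled within-genotype SD of log2 CPM (vertical axis) against mean normalized CPM (horizontal log axis) for the 16171 tested genes of at least 1 CPM, grey, with the immediate early genes as red circles, the heat shock genes as blue squares and the median SD of 0.155 as a dashed line. With all 6 libraries the 10 genes lie above the line, *Egr1* highest at 0.633, and 56 genes beyond 1.5 are not drawn. *Jun*, *Junb*, *Atf3* and *Dnajb1* come below 0.155, the median of all 6 libraries, when the library furthest from its group is left out.

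The 10 genes did not vary as one block. Relative to the mean of the 6 libraries on the log2 scale, *Egr1* was at 0.81 in Atrx-cKO replicate 3, the library in which *Hspa1a* was at -0.86, *Hsph1* at -0.54 and *Hspa1b* at -0.42. In Atrx-cKO replicate 2, *Hspa1b* and *Hsph1* were at 0.57 and 0.59 and *Fos* at -0.47. That library was also the lowest for all 7 osteoclast markers, with a median of -0.45. *Atf3* and *Jun* were at 0.91 and 0.62 in control replicate 3, and *Fosb* was at 0.83 and 0.80 in control replicates 1 and 3. The library medians of the 10 genes ran from -0.30 in Atrx-cKO replicate 3 to 0.39 in control replicate 3. Atrx-cKO replicate 2, highest for *Hspa1b* and *Hsph1*, also had the highest levels of genes that glucocorticoids induce, a list with a median of 0.41 there and between -0.25 and 0.16 elsewhere. Of its 10 genes 8 were highest in that library, while the metallothionein gene *Mt1* was at its lowest there (29.8 CPM, against 32.8 to 48.5 CPM) and *Mt2* had 13.7 CPM, within the range of the others. *Per1*, a clock gene also induced by stress hormone, had 65.9 CPM in that library and 20.3 to 47.8 in the others, and *Tsc22d3* (GILZ) had 101 CPM and 40.5 to 68.6. Whether hormone or time of day bears on the heat shock genes was not tested.

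**Figure D3:**
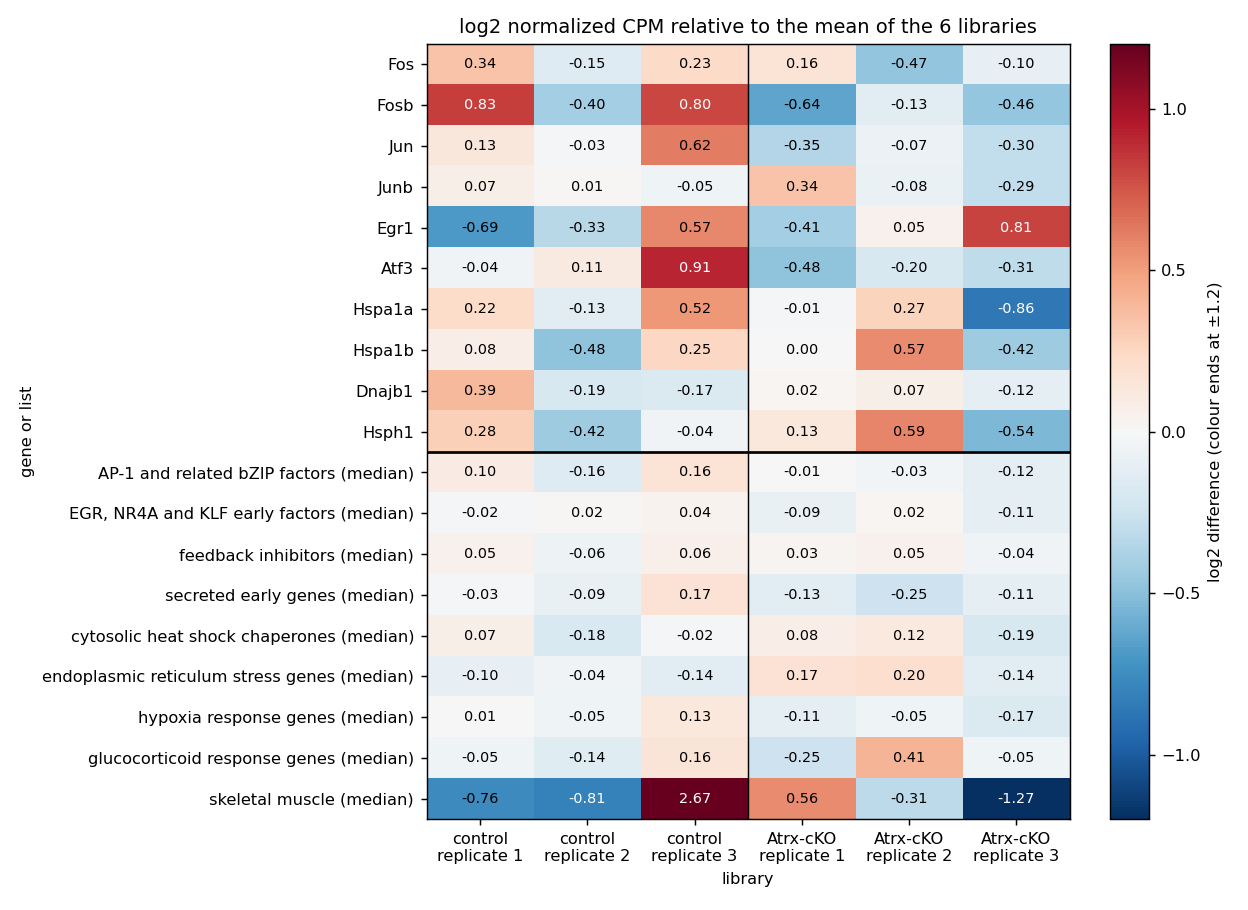
Difference of log2 normalized CPM from the mean of the 6 libraries for each of the 10 genes (upper block) and the median of that difference over the genes of 9 lists (lower block), one column per library, with the colour scale ending at 1.2 in either direction. Skeletal muscle stands out in control replicate 3 at 2.67, *Egr1* peaks in Atrx-cKO replicate 3 at 0.81, and the glucocorticoid list peaks in Atrx-cKO replicate 2 at 0.41.

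Genes with the most similar profile were found by the root mean square difference of centred log2 CPM over the 6 libraries, as a description. For *Fos* the nearest was *Mmp9*, the matrix metalloproteinase of osteoclasts and neutrophils, at 0.0537, where *Fos* itself differs from a flat profile by 0.272. *Unc5cl*, *Phyhip*, *A430090L17Rik* and *Smim26* came next, at 0.0681 to 0.0870. *Mmp9* had 925, 616 and 760 CPM in Atrx-cKO and 1044, 679 and 940 CPM in control tibias, with replicate 2 lowest in each genotype as for *Fos*. For *Hspa1a* the nearest were *Ddit4l* at 0.129, *Tsacc*, a cochaperone of a testis kinase, at 0.157, the small heat shock protein gene *Hspb1* at 0.165, *Tmeff1* and *Gm42725*, with *Hspa1a* itself at 0.438 from flat. *Hspb1* had 9.10, 13.1 and 6.52 CPM in Atrx-cKO and 10.8, 8.21 and 16.6 CPM in control tibias, the library order of *Hspa1a* within each genotype. For *Egr1* no profile came closer than 0.207 (*Gm49291*), followed by *Lncppara*, *Col9a3*, *Fras1* and *Lyrm7* up to 0.221, with *Egr1* at 0.538 from flat. *Fosb*, *Jun* and the other members were not searched.

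The wider families of these factors held no called gene either. Among 12 AP-1 and related bZIP genes, 4 had an unadjusted p under 0.05 as lower and 0 as higher, where 2.05% of tested genes passed as lower. The fourth beside *Fosb*, *Jun* and *Atf3* was *Fosl2* (FRA2), an AP-1 gene that acts in both osteoblasts and osteoclasts, with 136, 131 and 136 CPM in Atrx-cKO and 175, 157 and 170 CPM in control tibias. Its groups did not overlap, as with 4.01% of tested genes in this direction, and its libraries were close within each genotype, with a pooled SD of 0.0615, larger than that of only 7.96% of genes. Its log2 fold change was -0.32 (SE 0.078), with an unadjusted p of 0.00376 and an adjusted p of 0.992 (edgeR quasi-likelihood), and it ranged from -0.36 to -0.29 without single libraries. Among 15 tested genes of EGR, NR4A and KLF factors, with *Myc*, *Ier2*, *Ier3*, *Ier5* and *Csrnp1* included as further early genes, 1 passed an unadjusted p of 0.05, where 3.64% of tested genes did. It was the orphan receptor *Nr4a1*, with 11.9, 16.1 and 12.9 CPM in Atrx-cKO and 16.8, 17.8 and 33.5 CPM in control tibias. Its high value was in control replicate 3, as was that of *Nr4a3* (1.32, 1.72 and 1.19 CPM against 1.6, 1.91 and 6.01 CPM), and without that library their log2 fold changes were -0.36 and -0.33 in place of -0.74 and -1.16. *Egr2* and *Egr3* were at -0.055 and -0.028, and *Egr4*, with 1 count in control replicate 2 and 0 in the other 5 libraries, was not tested. *Klf4*, the most abundant of the list per length, was at -0.40 (unadjusted p = 0.0568).

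Genes before and after these factors in the pathway gave the following counts. Of 17 upstream SRF, CREB and MAP kinase genes, 0 passed an unadjusted p of 0.05. Their log2 fold changes lay between -0.082 and 0.12, with *Creb1* at 0.11 and *Mapkapk2* at -0.0062. Without single libraries *Creb1* ran from 0.023 to 0.20. Of 18 feedback inhibitors, among them MAP kinase phosphatases, RNA decay factors and inhibitors of cytokine and NF-κB signaling, 0 passed. The lowest p values belonged to the MAP kinase phosphatases *Dusp2* and *Dusp1*, at log2 fold changes of 0.29 and -0.27. With single libraries left out, *Dusp2* ran from 0.17 to 0.43 and *Dusp1* from -0.43 to -0.17. *Zfp36l1*, an RNA decay factor and the most abundant of the 18 per length, was at 0.093. Of 13 secreted early genes, 2 passed as lower, where 2.05% of tested genes did. *Thbs1*, a matrix glycoprotein, had 652, 722 and 772 CPM in Atrx-cKO and 840, 1214 and 1134 CPM in control tibias, groups that did not overlap, as with 4.01% of tested genes in this direction, and its log2 fold change was -0.57 (unadjusted p = 0.00620). *Il1b*, an inflammatory cytokine, had 8.19, 11.2 and 10.6 CPM against 24.3, 24.4 and 9.77 CPM, so that control replicate 3 was the exception, and its log2 fold change was -0.96 (unadjusted p = 0.0203). Both had an adjusted p of 0.992 (edgeR quasi-likelihood).

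Among 27 cytosolic chaperone genes, which include the 4 heat shock genes described, 0 were called, 17 were above and 10 below 0, and the median was 0.089, which came down to 0.0023 when Atrx-cKO replicate 2 was left out, to 0.017 when Atrx-cKO replicate 1 was and to 0.016 when control replicate 2 was. One passed an unadjusted p of 0.05, where 3.64% of tested genes did. This was *Hspa8*, the constitutive HSP70, with 711, 964 and 468 CPM in Atrx-cKO and 541, 414 and 456 CPM in control tibias. Atrx-cKO replicates 2 and 1 stood above all others and replicate 3 lay within the controls, the same order as for *Hspa1a*, *Hspa1b* and *Hsph1*. The log2 fold change was 0.60 (SE 0.25, unadjusted p = 0.0408, adjusted p = 0.992 with edgeR's quasi-likelihood method), and it was 0.32 without Atrx-cKO replicate 2. *Hspb8*, a small heat shock protein abundant in muscle, had 36.4 CPM in control replicate 3 and 3.89 to 8.79 in the other 5, and its log2 fold change went from -1.45 to 0.17 without that library. *Hsp90ab1*, the most abundant chaperone per length, was at 0.16. Heat shock factors and their binding proteins (6 genes) and mitochondrial chaperones (8 genes) had 0 genes at an unadjusted p under 0.05. *Hsf1* was at a log2 fold change of -0.028, *Hsf4* at -0.19, *Bag1* at -0.080, *Hspd1* (HSP60) at 0.21 and *Dnaja3* at -0.086. With single libraries left out, *Hsf4* ran from -0.30 to -0.080, *Bag1* from -0.13 to -0.021 and *Dnaja3* from -0.16 to -0.048. *Hspd1* ran from -0.021 to 0.35 and so changed sign.

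**Figure D4:**
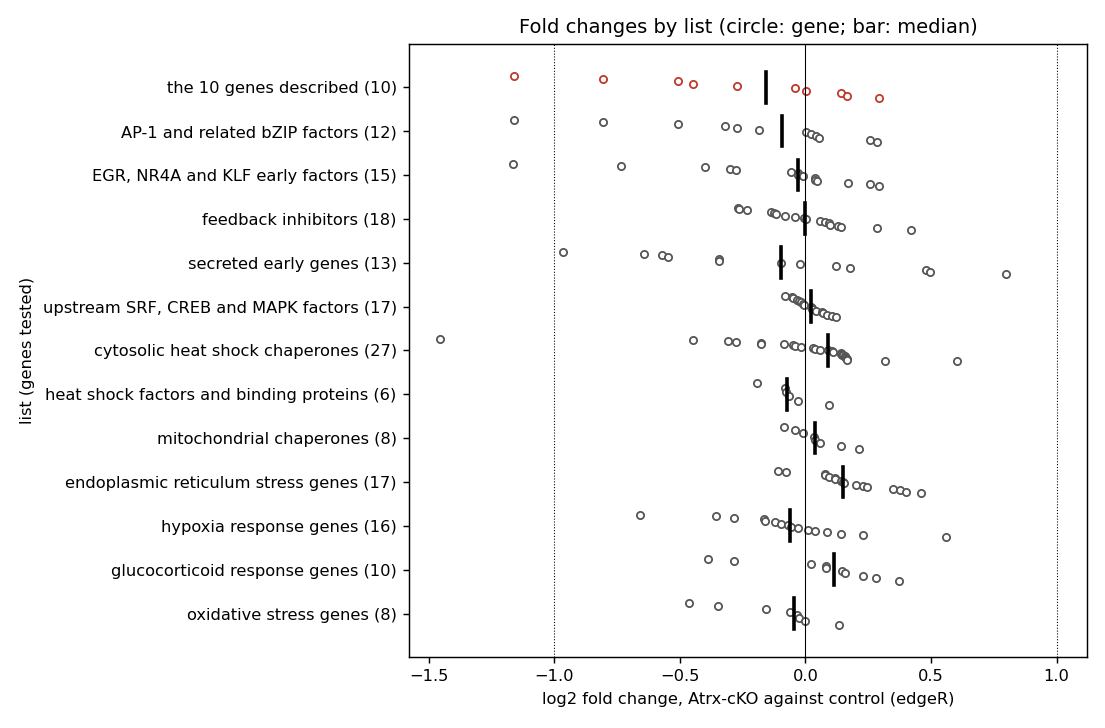
Log2 fold change of Atrx-cKO against control in edgeR (horizontal axis, dotted lines at -1 and 1) for every tested gene of 13 lists, one row per list with its number of genes tested, a circle per gene and a bar at the median. The 10 genes described are in red with a median of -0.16, and no list holds a called gene.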

How the data were processed

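Tibial RNA of 3 Atrx-cKO and 3 control mice was sequenced as paired-end reads of 150 bases, and the authors deposited raw counts per gene, without normalization, 1 table per library. The aligner and counting program are not given in the sources used here. The submitters' processing notes name GRCm38 and DESeq2, and the labels call the libraries strand specific. Identifiers were named with GENCODE M21 (55141 of 55401 matched, 260 not). The 5 summary entries, with 51.6% to 52.4% of each table on no feature, were left out. A count of 0 allows up to 3 counts, 0.0425 to 0.0588 CPM, for counting error only.

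Counts were fitted with edgeR 4.0.16 in R 4.3.3 (TMM, filterByExpr, glmQLFit, glmQLFTest, genotype alone, all 6 libraries) and adjusted over 20636 genes, after tests on simulated counts. DESeq2 1.42.0 was the alternative test. Other alternatives were the scaling, the filter on low counts, a replicate block and leaving out each library. Levels between genes were compared as CPM per kilobase of merged exons. P-values weigh the difference between genotypes against the estimated spread between these mice. Libraries of one genotype differed by more than sampling noise (chi-square per degree of freedom of 17.1 to 152). The 10 genes, the 12 pathway and 11 marker lists and the tests were chosen with earlier results of these data known. Genes named were the 10, in each pathway list those called, those with the lowest and next lowest p and the most abundant per length, in each marker list the most abundant per length, and 5 genes of similar profile for *Fos*, *Egr1* and *Hspa1a*. One gene that this rule picks is not reported here. *Per1*, *Tsc22d3*, *Egr2*, *Egr3*, *Egr4*, *Hsf1*, *Myh1*, *Myh2*, *Mb*, *Mt2*, *Zbtb16*, *Klf9*, *Ddit4*, *Hspa5*, *Sdf2l1*, *Hyou1*, *Atf4* and *Chac1* were named after their values were seen. *Atrx* and the genes that overlap some of the 10 were also named outside this rule.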

Additional observations from a re-analysis of the deposited data

How the results depend on the processing

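The 10 genes gave 0 calls with each scaling, filter, replicate block and left-out library in edgeR, with adjusted p values from 0.328 upward, and 0 in DESeq2 on all libraries. In DESeq2 fits without 1 library, added after the data were seen, 1 call appeared, *Fosb* without control replicate 2 (log2 fold change -1.52, adjusted p = 0.00645), while *Atf3* without control replicate 1 had an adjusted p of 0.0432 at a log2 fold change of -0.99. The number at an unadjusted p under 0.05 was 0 to 3 in edgeR without single libraries, 0 without Atrx-cKO replicate 1 or 3 and 1 without control replicate 3. The median of the 10 ran from -0.32 to -0.068 in those fits. Signs turned for 7 genes. *Junb* was at -0.0017 with RLE factors, -0.0012 with upper quartile scaling and -0.0020 in DESeq2, and *Dnajb1* at 0.015 with total counts. With single libraries left out, edgeR gave from -0.20 to 0.13 for *Junb*, -0.11 to 0.73 for *Egr1*, -0.21 to 0.37 for *Hspa1b*, -0.15 to 0.18 for *Dnajb1*, -0.14 to 0.41 for *Hsph1*, -1.94 to 0.17 for *Hspb8* and -0.021 to 0.35 for *Hspd1*. DESeq2 gave -0.20 and -0.038 for *Junb* without Atrx-cKO replicate 1 and control replicate 3, -0.11 for *Egr1* without Atrx-cKO replicate 3, -0.21 and -0.071 for *Hspa1b* and -0.14 and -0.00073 for *Hsph1* without Atrx-cKO replicate 2 and control replicate 2, and 0.0060 and 0.18 for *Dnajb1* without Atrx-cKO replicate 3 and control replicate 1. The cause was not tested.

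Over all tested genes, 3 were called in edgeR, 23 in DESeq2, 5 without a filter and 1 with at least 10 counts in every library, and from 0 to 5 without single libraries. Calls by DESeq2 numbered 19, 18 and 22 when Atrx-cKO replicate 1, 2 or 3 was left out, and 70, 13 and 17 when control replicate 1, 2 or 3 was. At an unadjusted p under 0.05 there were 751 genes, 1457 without a filter, from 588 to 2076 without single libraries (the most without control replicate 1) and 2226 in DESeq2 without control replicate 1. The study describes no pairing of same-numbered libraries, and the main fit used none. Their deviations from the group means correlated at 0.0082, 0.14 and -0.13, where those of differently numbered libraries ran from -0.18 to 0.12. Such correlations cannot show whether mice were littermates or handled together, so pairing was not settled. Adding a replicate block left 0 calls, *Junb* was at -0.022, and *Egr1* at 0.30 had an unadjusted p of 0.00743 and an adjusted p of 0.974. Under the alternatives set at the start, 413 log2 fold changes kept their sign and side of the threshold and 16 reversed. Counts were less stable. The number of genes called moved beyond a set margin in 8 alternatives and held in 5. The number of the 10 genes at an unadjusted p under 0.05 moved in 3 and held in 10, and that of all genes moved in 2 and held in 11. Of list medians 9 moved and 160 held. Depth of 45 to 4052 counts per library for these genes limits the weakest, *Hspa1a* and *Fosb*, most.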

Other observations

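Other stress programs held no called gene in edgeR, and their counts are descriptions of lists chosen with earlier results known. Genes of the endoplasmic reticulum stress response had 15 of 17 log2 fold changes above 0, where 51.2% of all tested genes were, and a median of 0.15. The list stood at medians of 0.17 and 0.20 above the mean of the 6 libraries in Atrx-cKO replicates 1 and 2, and at -0.14 in Atrx-cKO replicate 3, level with the lowest control. *Trib3*, a target of the integrated stress response, had 2.17, 2.0 and 1.71 CPM in Atrx-cKO and 1.40, 1.31 and 1.58 CPM in control tibias, groups that did not overlap, as with 8.31% of tested genes in either direction (log2 fold change 0.46). *Hsp90b1*, the chaperone GRP94, had 583, 570 and 490 CPM against 471, 490 and 441 CPM (log2 fold change 0.23), and *Hspa5* (BiP) 678, 743 and 458 CPM against 498, 487 and 492 CPM, with Atrx-cKO replicate 3 below all controls. *Sdf2l1* and *Hyou1* were at 0.40 and 0.38, and *Atf4* and *Chac1*, at -0.079 and -0.11, were the only 2 of the list below 0. *Calr* (calreticulin), the most abundant of them per length, was at 0.20. None of the 17 passed an unadjusted p of 0.05.

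Of 16 hypoxia genes, 2 passed an unadjusted p of 0.05 as lower, where 2.05% of all tested genes did. *Adm*, a vasodilator peptide, had 2.87, 4.55 and 4.13 CPM in Atrx-cKO and 7.05, 5.84 and 5.36 CPM in control tibias (log2 fold change -0.66), and *Egln1*, the oxygen sensor PHD2, 47.9, 52.8 and 48.8 CPM against 55.5, 54.1 and 72.6 CPM (-0.29). The high *Egln1* value was in control replicate 3, without which its log2 fold change was -0.15. *Ldha*, lactate dehydrogenase, was at -0.097. Of 8 oxidative stress genes 1 passed as lower, against the same 2.05%. It was *Osgin1*, with 4.96, 5.71 and 6.32 CPM against 7.31, 7.28 and 7.06 CPM (-0.35), while *Slc7a11*, the cystine transporter, was at -0.47 and *Hmox1*, heme oxygenase, at -0.0036. Of 10 glucocorticoid-induced genes 0 passed. *Fkbp5* was at 0.28 (from 0.15 to 0.40 without single libraries), *Mt1* at -0.29 (-0.11 without control replicate 3) and *Cdkn1a* at 0.023. *Klf9* and *Zbtb16* had 111 and 12.1 CPM in Atrx-cKO replicate 2, the highest of the 6 libraries in each, as was *Ddit4*, a gene of the hypoxia list that glucocorticoids also induce, at 115 CPM.

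Markers of the cell types of bone and marrow held no called gene in edgeR. The 11 lists had 4 genes at an unadjusted p under 0.05 as lower, 1 each of the osteoblast, osteocyte, chondrocyte and monocyte lists, and 1 as higher, of the endothelial list, where 3.64% of all tested genes passed in either direction. All 9 osteoblast markers were below 0 with a median log2 fold change of -0.21, which ran from -0.39 without control replicate 1 to -0.10 with Atrx-cKO replicate 1 left out and was -0.13 without control replicate 2. Below 0 were also 11 of 12 skeletal muscle markers with a median of -1.49. The muscle value rests on control replicate 3, without which 10 of the 12 were above 0 and the median was 0.62. Above 0 were all 10 neutrophil markers (median 0.19, *S100a9* at 0.23), all 8 erythroid markers (median 0.11, *Hbb-bs* at 0.22), all 7 B cell markers (median 0.18, *Cd79a* at 0.13) and all 7 endothelial markers (median 0.13, *Cdh5* at 0.086). The direction of the erythroid list turned without control replicate 2 (median -0.17) or 3 (-0.096), and that of the B cell list without control replicate 2 (-0.025). Without control replicate 1 the erythroid and B cell medians were 0.67 and 0.44. The erythroid median was 0.022 without Atrx-cKO replicate 1, and the B cell median 0.054 without Atrx-cKO replicate 3. The endothelial median was 0.082 with control replicate 2 and 0.076 with control replicate 3 left out. The neutrophil median was 0.049 with Atrx-cKO replicate 1 left out and 0.048 with control replicate 3 left out. These values for marker lists with a library left out were added after seeing the data. The osteocyte, chondrocyte, monocyte and adipocyte lists lay on both sides of 0, with *Dmp1* of osteocytes at -0.082, *Col2a1* of chondrocytes at -0.56 (unadjusted p = 0.0250), *Lyz2* of monocytes and macrophages at -0.13 and *Adipoq* of adipocytes at 0.071.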
